A study of Mus musculus with 11 samples.

Results

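The comparison described here set 3 PC libraries against 3 vehicle libraries of mouse CD8+ T cells, which are 6 of the 11 libraries of the series. They were chosen by label and batch, PC 1 to 3 and vehicle 1 to 3, with no measured value used. CD8+ T cells were isolated from spleens of C57BL/6 mice, an inbred strain, with a commercial isolation kit and were activated through CD3 and CD28, that is through the antigen receptor and a costimulatory receptor, with 1 µg/mL and 0.5 µg/mL of antibody. The PC libraries came from cells pretreated for 22 h with 60 µM PC16:0-20:4, a phosphatidylcholine with a palmitic acid and an arachidonic acid chain, and then activated for 24 h, with 10% glycerol in phosphate-buffered saline as a buffer control for a protein. The vehicle libraries came from cells that received ethanol in the pretreatment and the same buffer control. The labels name no solvent for the lipid, so the lipid and a difference in solvent cannot be told apart. They also differ on whether the buffer and AOAH were given before or during activation, on whether beads or a coated plate carried the antibodies, and on whether interleukin-2 (100 IU/mL) was in the medium. The remaining libraries are vehicle 4, used below only as a check because its label does not list this comparison, and 4 libraries of cells given AOAH, an enzyme that removes fatty acyl chains from lipids, at 10 µg/mL.

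Phosphatidylcholine is the main phospholipid of animal cell membranes. A phospholipase A2 can free its arachidonic acid, which cyclooxygenases and lipoxygenases turn into prostaglandins and leukotrienes, and prostaglandin E2 acts on T cells through receptors that raise cyclic AMP. An activated CD8+ T cell leaves its resting state within a day, divides repeatedly, loads granules with granzymes and perforin, and secretes cytokines and chemokines. Lipid excess can load the endoplasmic reticulum, where membrane lipids and secreted proteins are made, and sensors in its membrane act through the transcription factors ATF4, ATF6 and XBP1.

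The 8 CD8+ T cell markers checked (among them Cd3e, Cd8a and Trac) summed to 2249.7, 2323 and 2265 TPM in PC 1, 2 and 3 and 1949.6, 1984 and 1946 TPM in vehicle 1, 2 and 3, where TPM is a scale of expression corrected for transcript length and library size. All 8 were called higher with PC. Of the marker lists of other cells, those with low sums stood at 5.91 to 7.30 TPM with PC and 4.84 to 8.26 TPM with vehicle 1 to 3 for macrophages and monocytes, 3.12 to 3.63 TPM and 2.77 to 3.95 TPM for gamma-delta T cells, 1.17 to 4.6 TPM and 0.81 to 1.73 TPM for erythroid cells and platelets, and 0 to 0.13 TPM in both groups for neutrophils. The 4 CD4+ T cell markers summed to 6.33, 9.03 and 7.82 TPM in PC 1, 2 and 3 and 6.04, 5.13 and 3.87 TPM in vehicle 1, 2 and 3, with Cd4 itself at 0.18 to 0.42 TPM. Of the 2 tested, Cd40lg, the ligand of CD40, was called higher, at 2.82, 2.17 and 3.12 TPM with PC and 1.67, 1.18 and 1.24 TPM with vehicle (log2 change 0.65, adjusted p = 0.0238), but not without PC 1 (0.0750), PC 3 (0.0837), vehicle 2 (0.0614) or vehicle 3 (0.0753). The natural killer cell list summed to 620 to 628 TPM with PC and 593 to 629 TPM with vehicle, most of it Nkg7, which cytotoxic T cells also express, and of 3 tested members Eomes was called, lower. The dendritic cell list summed to 78.1 to 81.4 TPM with PC and 74.4 to 78.3 TPM with vehicle, most of it the widely expressed Cst3, and neither tested member was called. The 13 markers of B and plasma cells summed to 190 to 197 TPM with PC and 177 to 181 TPM with vehicle, and of the 6 that were tested 1 was called. It was Ighm, an immunoglobulin heavy chain, at 162, 167 and 159 TPM with PC and 143, 143 and 146 TPM with vehicle (log2 change 0.18, adjusted p = 0.007702). The 6 markers of spleen stroma summed to 23.8 to 24.6 TPM with PC and 18.96 to 19.68 TPM with vehicle. Nearly all of it was Pecam1 (means of 24.1 TPM with PC, 19.1 TPM with vehicle and 12.3 TPM in AOAH 1 to 3), the 1 member tested, which was called higher. The other markers of that list were thus near 0. The part of these lists in the results below was not tested. Between 11569 and 11739 genes per library stood at 1 TPM or more. TPM keep no depth, so sequencing depth is unknown here. The labels do not tie the 3 libraries of a group to separate mice or cultures. The p-values therefore reflect the spread between libraries, which may be technical.

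Of 11628 genes that averaged 1 TPM or more in the 6 libraries, limma called 2270 (19.5%) at an adjusted p under 0.05, 962 higher with PC (8.27%) and 1308 lower (11.2%). Those shares are the background for every gene list below, and the median log2 change of all genes tested was -0.0089. Because TPM are shares of a pool of RNA, a gene at a lower level may come from fewer cells of one kind or less RNA per cell, and these cannot be told apart here. Calls numbered 1405 without PC 2, 1387 without PC 3, 1274 without vehicle 1 and 1391 without vehicle 3. Of the 2270 calls with all 6 libraries, 530 were under 0.2 on the log2 scale, and 16 rises and 65 falls were at least 2-fold. Vehicle 4 lay on the vehicle side of all 3 PC libraries for 916 of the 962 genes called higher (95.2%) and for 1263 of the 1308 called lower (96.6%). In the authors' deposited table, whose labels name DESeq2, 1447 genes that could be matched by symbol were called, and 1323 of them (91.4%) were also called by limma, all in the same direction. These shared genes are 60.2% of the matched limma calls. Genes named below that limma called but the authors' table did not include Map1lc3a (DESeq2 adjusted p = 0.0874), Dgat1 (0.0883), Gstp1 (0.204), Cst7 (0.110), Asns (0.0677), Psmb8 (0.0709) and Cdk4 (0.0501). Cdc25b, Ctsw, Osm, Themis, Pdia5, Gpx4, Myc and Cd40lg, whose limma calls depended on the setting, were not called there either.

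**Figure D1:**
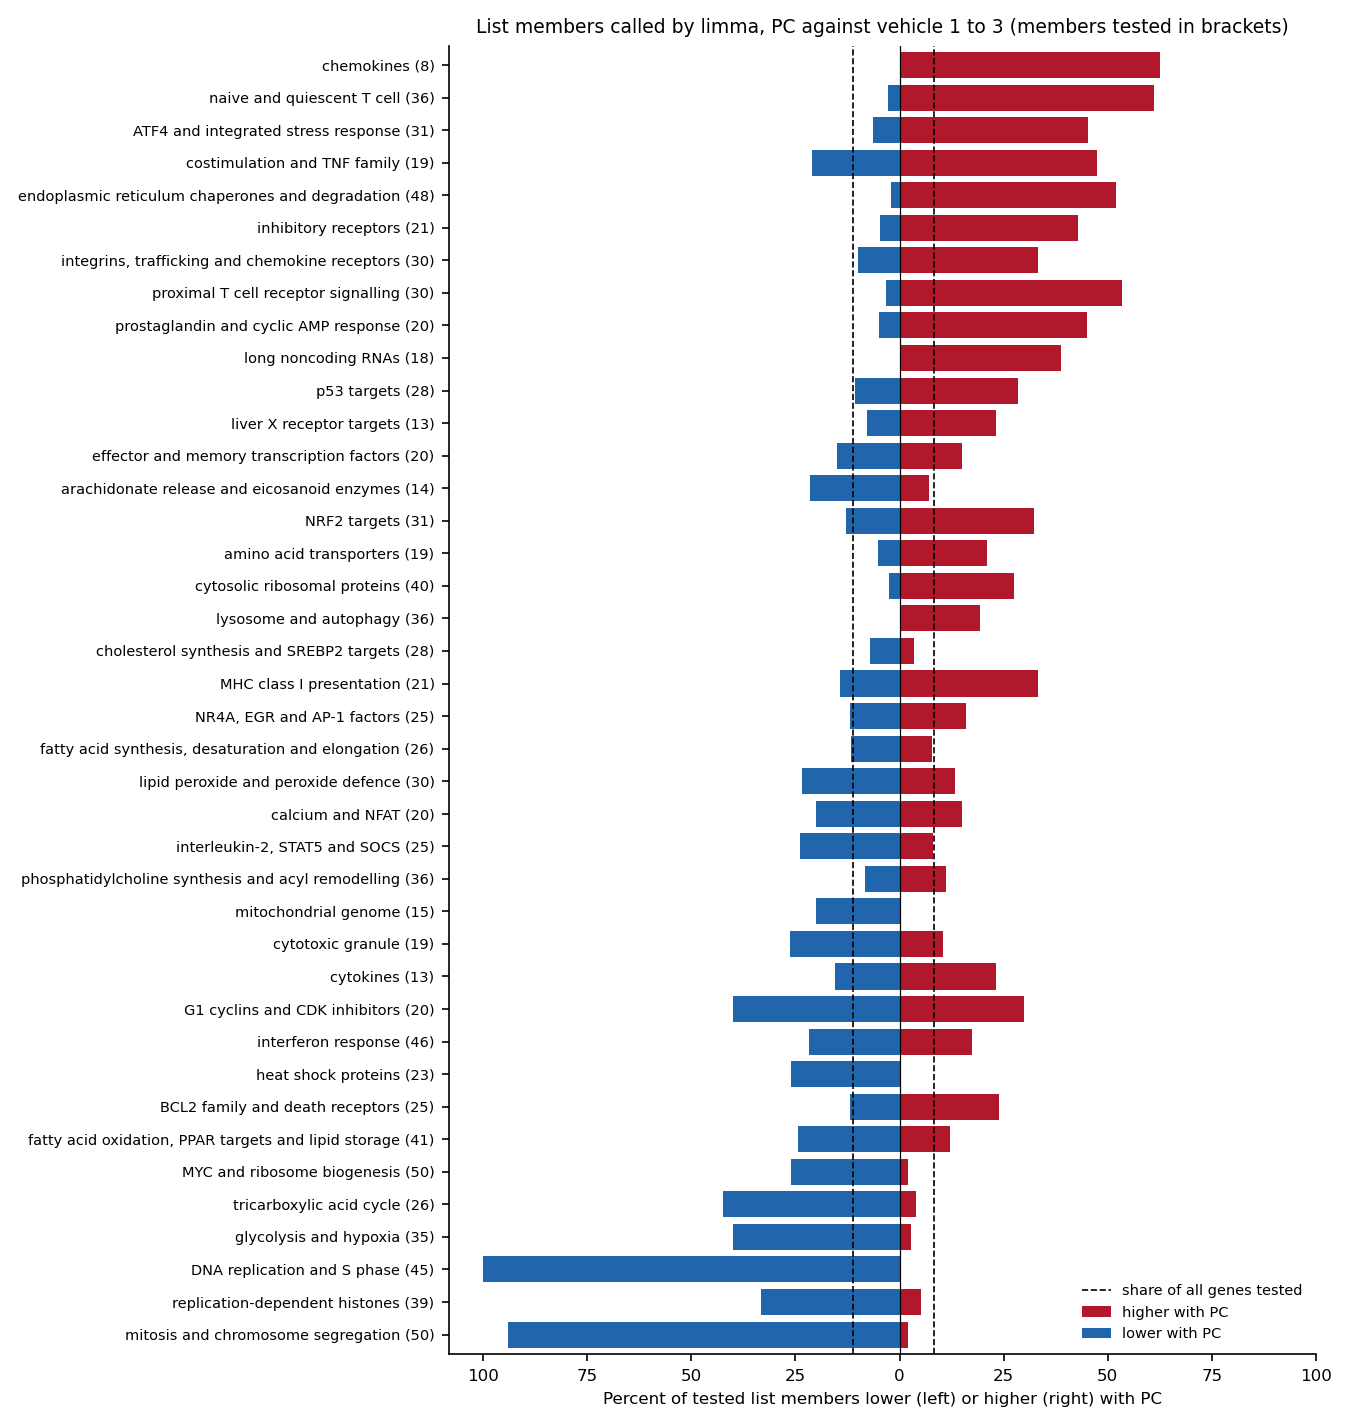
Share of the tested members of each of 40 gene lists called lower (bars to the left) or higher (bars to the right) with PC against vehicle 1 to 3, with the number of members tested in brackets and dashed lines at the share of all genes tested (11.2% lower, 8.27% higher). The mitosis and S phase lists fell almost entirely, and the chemokine, naive T cell, receptor signalling and endoplasmic reticulum lists rose most often.

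**Figure D2:**
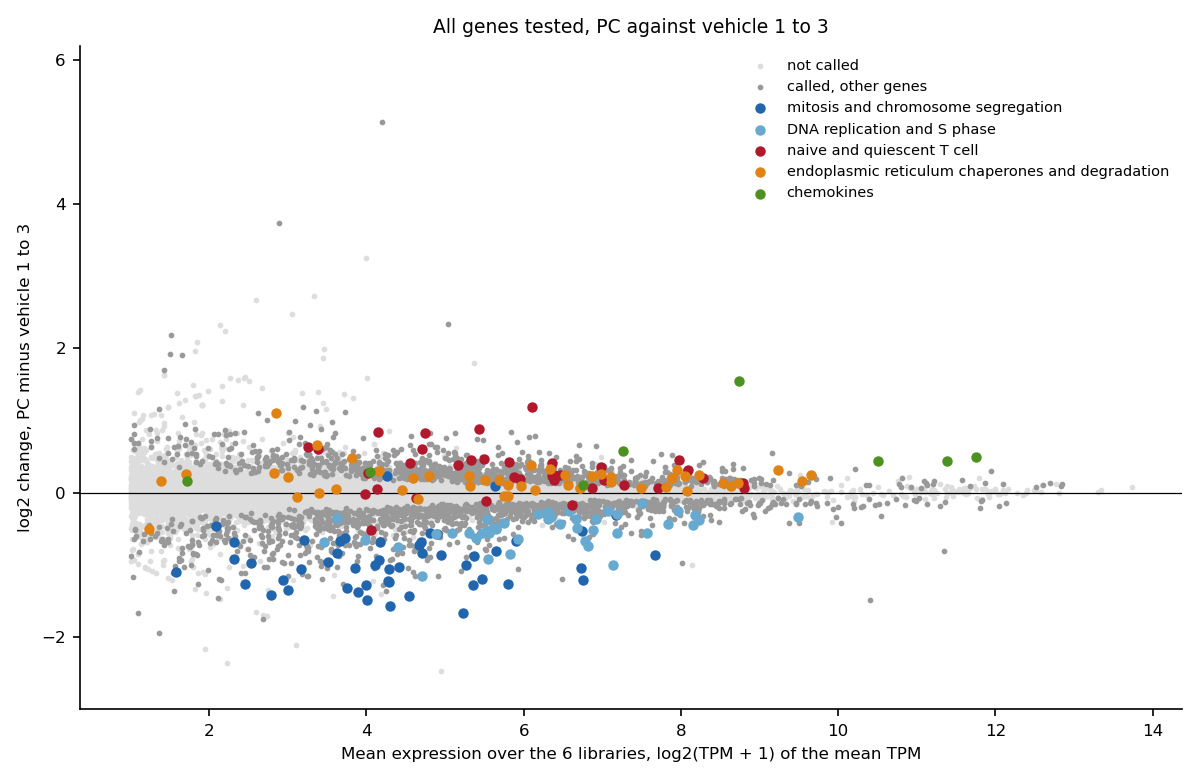
Log2 change with PC against mean expression for all 11628 genes tested, with called genes in dark grey and the members of 5 lists in colour. Mitosis genes lie lowest, between about 1 and 2 log2 units below 0 for many members, and S phase genes lie between them and the zero line.

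Genes of cell division fell together with PC. Of 50 tested genes of mitosis and chromosome segregation, 47 fell and 1 rose, with a median log2 change of -0.99. Summed over the list, expression was 1177, 1082 and 1092 TPM in PC 1, 2 and 3 and 2181, 1857 and 2158 TPM in vehicle 1, 2 and 3. Vehicle 4 (1843 TPM) and vehicle 2 were the lowest of the vehicle libraries, but both stood far above every PC library.

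Espl1, the protease separase that cuts the cohesin rings between sister chromatids, is not on the list but was among the largest falls. It stood at 9.52, 8.79 and 10.7 TPM with PC and 26.8, 26.1 and 26.3 TPM with vehicle. The groups were far apart, and vehicle 4 (24.9 TPM) sat with the other vehicle libraries. The log2 change was -1.37 ± 0.073 (SE, adjusted p = 4.62e-04). Ccna2, the cyclin of S phase and early mitosis, stood at 25.1, 20.7 and 23.2 TPM with PC and 60.7, 49.6 and 60.8 TPM with vehicle, a 2.48-fold lower mean (log2 change -1.27, adjusted p = 8.15e-04). Kif20a, a kinesin of the late spindle, stood at 9.97, 7.55 and 7.54 TPM against 22.5, 18.8 and 23.4 TPM (log2 change -1.28, adjusted p = 0.00148). In both genes every PC library lay far below every vehicle library. The microtubule bundlers Prc1 (-1.32) and Nusap1 (-1.35) and, outside the list, the midbody protein Shcbp1 (-1.28) fell by similar amounts on the log2 scale. Cdc20, which switches on the anaphase-promoting complex, fell by less, from 38.7, 36.2 and 41.7 TPM in vehicle 1, 2 and 3 to 21.02, 20.5 and 21.01 TPM in PC 1, 2 and 3 (log2 change -0.87, adjusted p = 6.84e-04).

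The members of the list that did not fall were Cdc25b, Pttg1 and Cdc25c. Cdc25b, a phosphatase that starts mitosis, was higher with PC at 20.2, 18.9 and 20.2 TPM against 16.6, 16.4 and 17.03 TPM (log2 change 0.23, adjusted p = 0.0223), but it was not called in a fit with batch as a block (the blocked fit, adjusted p = 0.0587) or without PC 1 (0.0688), PC 3 (0.0785), vehicle 1 (0.0708) or vehicle 3 (0.0531). Pttg1, the securin that holds separase inactive, stood at 51.2, 47.9 and 51.7 TPM with PC and 52.3, 47 and 41.97 TPM with vehicle, and the groups overlapped (adjusted p = 0.451). Cdc25c, at 2.31 to 2.62 TPM with PC and 2.50 to 5.53 TPM with vehicle, did not pass either (adjusted p = 0.192), although it was called lower without vehicle 2 (0.0337).

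Many mitosis genes share a pair of promoter elements, the cell cycle genes homology region (CHR, letters TTTGAA) and CCAAT boxes, which bind the DREAM and NF-Y complexes respectively. Promoters of 3 genes that fell are shown because they hold both elements within a short stretch. Letters in capitals mark CHR and CCAAT matches on either strand (TTCAAA and ATTGG are the same letters read on the other strand). Sequences are RefSeq bases upstream of the gene start on build GRCm38.p6, which is not the build of the deposited table, and run 5′ to 3′ on the strand of the gene.
Cdc20 (chr4:118437344-118437463, minus strand): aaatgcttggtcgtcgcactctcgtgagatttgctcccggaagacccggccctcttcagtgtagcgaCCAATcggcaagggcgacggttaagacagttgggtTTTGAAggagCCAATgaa
Top2a (chr11:99024190-99024309, minus strand): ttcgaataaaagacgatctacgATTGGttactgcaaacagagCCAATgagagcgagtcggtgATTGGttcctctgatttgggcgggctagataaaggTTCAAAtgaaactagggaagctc
Mki67 (chr7:135716460-135716579, minus strand): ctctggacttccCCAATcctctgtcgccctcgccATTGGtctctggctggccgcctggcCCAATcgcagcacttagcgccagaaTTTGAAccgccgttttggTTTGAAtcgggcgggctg

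Top2a, a topoisomerase that untangles replicated chromosomes, stood at 67.7, 62.9 and 61.9 TPM with PC and 154, 137 and 158 TPM with vehicle, with no overlap. Mki67, which coats mitotic chromosomes, stood at 9.19, 8.87 and 8.5 TPM with PC and 31.8, 22.9 and 31.2 TPM with vehicle, and vehicle 2 was the lowest of the latter. In windows from 250 bases before to 50 bases after the first listed start, CHR letters were found on either strand in 26 of 42 mitosis genes with a RefSeq promoter (61.9%) and in 12.3% of the 8532 promoters of all tested genes. CHR letters and a CCAAT box together were found in 23 of the 42 (54.8%) and in 5.4% of all. By outcome, CHR letters were in 20.1% of the promoters of genes called lower, 12.4% of those called higher and 11.1% of those not called. These are matches of letters and do not show binding.

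E2F factors, which drive S phase genes, bind letters such as TTTGGCGC. These were found in 6 of 36 S phase promoters (16.7%) and in 1.1% of all. All 45 tested genes of DNA replication and S phase fell, with a median log2 change of -0.50. The count was 39 without vehicle 3 and 44 with batch as a block. Rrm2, the regulated subunit of ribonucleotide reductase, which makes the building blocks of DNA, stood at 99.6, 84.8 and 94.02 TPM with PC and 196, 169 and 197 TPM with vehicle. Even the lowest vehicle library exceeded the highest PC library by far (log2 change -1.01 ± 0.078, SE, adjusted p = 8.15e-04). Tk1, which salvages thymidine, stood at 33.2, 28.7 and 32.3 TPM against 63.2, 57.9 and 59.5 TPM (log2 change -0.92, adjusted p = 7.07e-04). Lig1, the ligase that seals lagging strand fragments, fell by 0.74 on the log2 scale, Dut, which clears dUTP, by 0.55, and Ccne1, the cyclin that starts S phase, by 0.56.

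Genes that act earlier, at the decision to divide, moved in both directions. Of 20 G1 cyclins, kinases and inhibitors, 6 rose and 8 fell (5 without PC 2, PC 3 or vehicle 3, 4 without vehicle 1 and 4 with batch as a block). Cdkn1a, which encodes the kinase inhibitor p21, rose in mean level 1.82-fold, from 20.1, 18.6 and 18.7 TPM in vehicle 1, 2 and 3 to 30.7, 37.6 and 35.9 TPM in PC 1, 2 and 3 (log2 change 0.83 ± 0.080, SE, adjusted p = 0.00146). All 3 PC libraries were above all vehicle libraries, including vehicle 4 (17.8 TPM). The antiproliferative genes Tob1 (0.63, adjusted p = 0.00457) and Btg2 (0.45, adjusted p = 0.00223) and the inhibitor Cdkn1b (0.41, adjusted p = 0.00759) rose as well. The kinase Cdk6 fell from 73.4, 66.4 and 78.2 TPM with vehicle 1, 2 and 3 to 42.3, 48.3 and 45.1 TPM with PC 1, 2 and 3 (log2 change -0.67, adjusted p = 0.00196), Cdk2 fell by 0.45 and Cdk4 by 0.15. Ccnd2, the D-type cyclin at the highest TPM here, stood at 279, 287 and 272 TPM with PC and 293, 259 and 295 TPM with vehicle, and the groups overlapped (adjusted p = 0.901).

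Replication-dependent histone genes, which make chromatin for newly copied DNA, fell in 13 of 39 tested cases and rose in 2, with a median log2 change of -0.61. Summed histone expression was 957 to 1005 TPM with PC and 2319 to 2483 TPM with vehicle 1 to 3. Most of both sums was 1 gene, H2ac24, at 741, 708 and 699 TPM with PC and 2054, 1927 and 2024 TPM with vehicle (log2 change -1.48 ± 0.033, SE, adjusted p = 8.50e-06). Without it, the sums were 253 to 264 TPM with PC and 389 to 429 TPM with vehicle 1 to 3. These transcripts mostly lack a poly(A) tail and the libraries were made from poly(A) RNA, and the copies are near-identical, so single genes are uncertain. H3c3 stood at 19.1, 19.04 and 14.9 TPM with PC and 45, 35.8 and 40.3 TPM with vehicle (log2 change -1.15, adjusted p = 0.00162). H2ac12 was listed at 0 in all 3 PC libraries and at 1.30 to 5.17 TPM in vehicle 1 to 3. H2ac19 went the other way, at 35.04, 35.2 and 32.95 TPM with PC and 21.3, 25.5 and 22.2 TPM with vehicle (log2 change 0.56, adjusted p = 0.00313). The other member that rose, H2bc4 (0.48, adjusted p = 0.0325), was not called in the blocked fit (adjusted p = 0.0862) or without PC 2 (0.109), PC 3 (0.113), vehicle 1 (0.0827), vehicle 2 (0.0732) or vehicle 3 (0.0810).

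**Figure D3:**
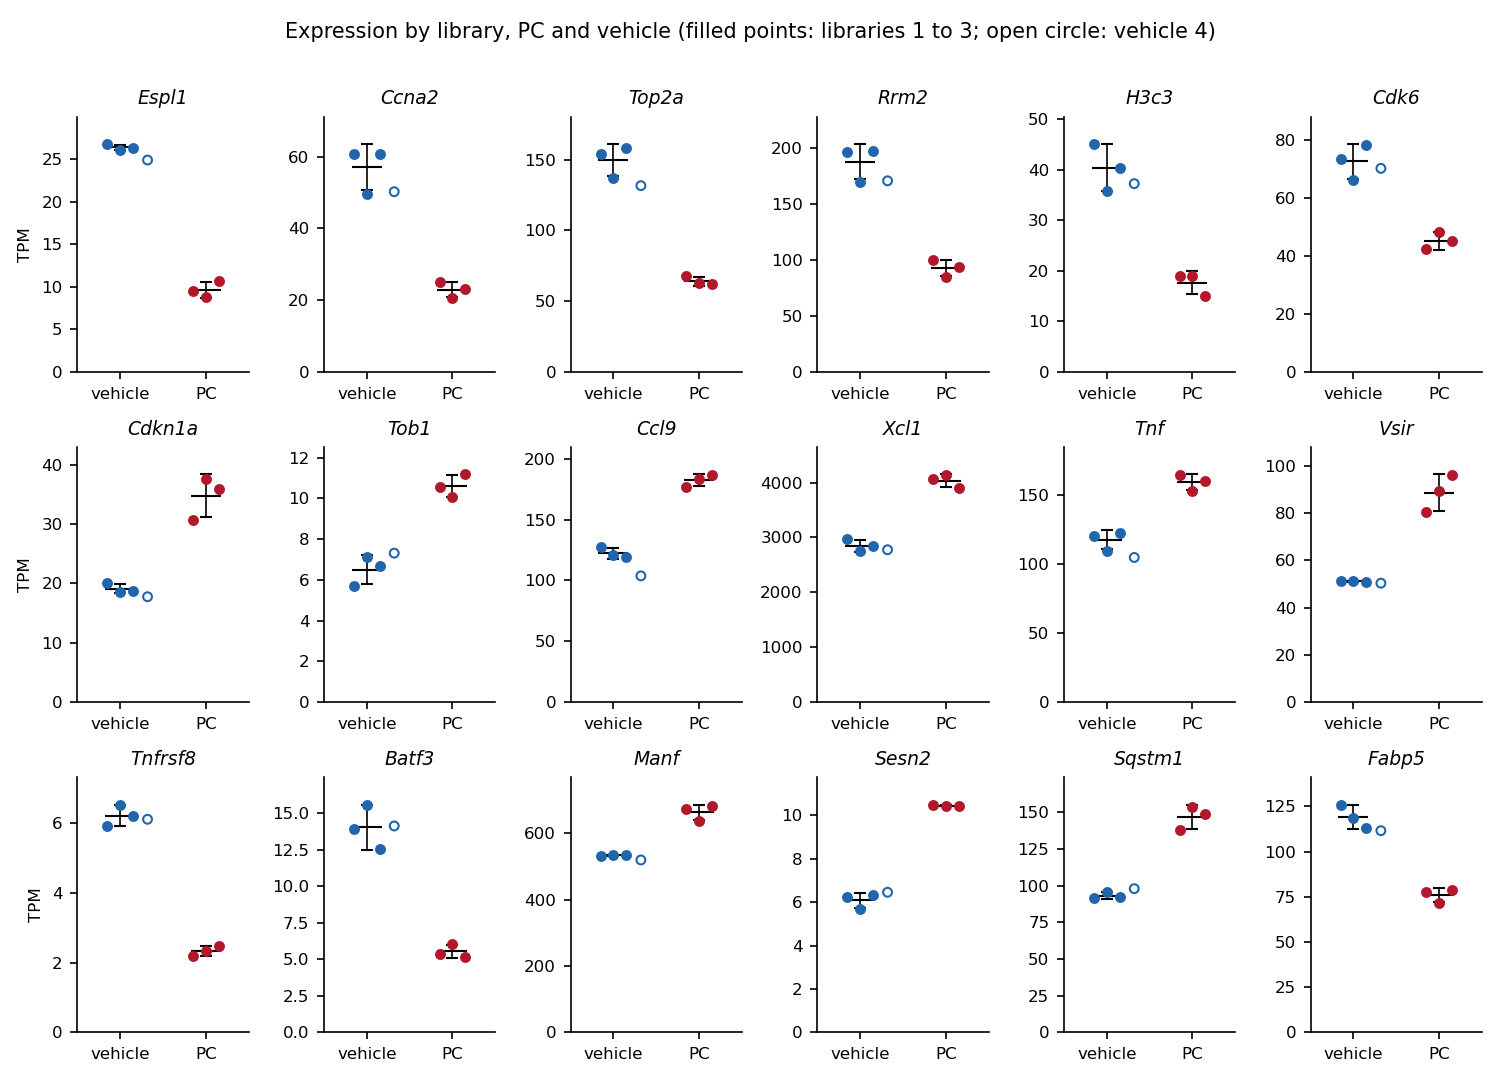
Expression in TPM of 18 genes named in the text in vehicle 1 to 3 and PC 1 to 3 (filled points), with the mean and SD of each group (bars, n = 3) and vehicle 4 as an open circle. In every panel the 3 PC libraries lie outside the range of all 4 vehicle libraries.

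Effector genes did not move as one group with PC. Of 19 genes of the cytotoxic granule, 5 fell and 2 rose. Gzmb, granzyme B, was the largest fall, at 1897, 1869.5 and 1904 TPM with PC against 3358, 3249.9 and 3364 TPM with vehicle. Serpinb9, which shields the cell from its own granzyme B, fell from 144, 137 and 145 TPM in vehicle 1, 2 and 3 to 116, 114 and 117 TPM in PC 1, 2 and 3 (log2 change -0.30, adjusted p = 0.00205). The death ligand Tnfsf10 (-0.45, adjusted p = 0.00703) and the granule cystatin Cst7 (-0.22, adjusted p = 0.00495) fell too. Srgn, the proteoglycan serglycin on which granule proteins are packed, rose instead, from 475, 451 and 461 TPM in vehicle 1, 2 and 3 to 669, 663 and 693 TPM in PC 1, 2 and 3. Its groups were well apart (log2 change 0.55 ± 0.028, SE, adjusted p = 4.51e-04). Prf1, the pore-forming perforin, stood at 114, 105 and 108 TPM with PC and 105, 96.97 and 106 TPM with vehicle and did not pass (adjusted p = 0.309). The other granule gene called higher was Ctsw (0.13, adjusted p = 0.0297), which was not called in the blocked fit (adjusted p = 0.0694) or without PC 1 (0.0730), PC 2 (0.0870), PC 3 (0.0856), vehicle 1 (0.0540) or vehicle 3 (0.0669).

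Chemokine genes rose in 5 of 8 tested cases and fell in 0, with a median log2 change of 0.44. Ccl1, a ligand of CCR8, stood at 647, 621 and 642 TPM with PC and 231, 189 and 235 TPM with vehicle. Xcl1, which draws in cross-presenting dendritic cells, stood at 4063, 4132 and 3909 TPM with PC and 2964, 2748 and 2837 TPM with vehicle (log2 change 0.50 ± 0.033, SE, adjusted p = 6.84e-04). Ccl9 stood at 177, 184 and 186 TPM against 128, 121 and 119 TPM (log2 change 0.57, adjusted p = 6.84e-04). PC libraries were above all vehicle libraries in these 3 genes. Ccl4, which draws in T cells and monocytes, rose by 0.44 on the log2 scale (adjusted p = 0.00129), and Ccl3 by 0.43 (adjusted p = 0.0155, and 0.0515 without PC 2). Ccl5, a chemokine of effector CD8+ T cells, stood at 110.3, 119 and 104 TPM with PC and 99.7, 112 and 98.3 TPM with vehicle, with overlapping groups (adjusted p = 0.331).

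Among 13 cytokine genes, 3 rose and 2 fell. Tnf, an inflammatory cytokine, stood at 164, 153 and 159.97 TPM with PC and 120.3, 109 and 122 TPM with vehicle (log2 change 0.44, adjusted p = 0.00219). Il23a, a subunit of interleukin-23, stood at 5.66, 8.58 and 8 TPM with PC and 2.52, 3.02 and 3.11 TPM with vehicle (log2 change 1.10, adjusted p = 0.00402). Neither gene had overlapping groups. Il2, the main growth factor of T cells, was called higher at 25.1, 31.1 and 27.8 TPM against 20.3, 15.1 and 19.5 TPM (log2 change 0.59, adjusted p = 0.0185), but not in the blocked fit (adjusted p = 0.0599) or without PC 2 (0.0600) or PC 3 (0.0575). Ifng, interferon gamma, was not called, at 1496, 1548 and 1425 TPM with PC and 1623, 1339.7 and 1644 TPM with vehicle (adjusted p = 0.785). Lif was called lower (-0.33, adjusted p = 0.00398), but vehicle 4, at 22.5 TPM, lay with the PC libraries, and with it included the adjusted p was 0.135. The other cytokine called lower was Osm (-0.30, adjusted p = 0.0265), which was not called without PC 1 (0.0698), PC 2 (0.0818), vehicle 1 (0.0749) or vehicle 3 (0.0871).

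Many genes of naive and resting T cells were higher with PC. Of 36 tested, 22 rose and 1 fell, with a median log2 change of 0.24. S1pr1, the receptor for sphingosine 1-phosphate that lets T cells leave lymphoid organs, stood at 53.1, 55.3 and 55.4 TPM with PC and 28.1, 32.6 and 27.4 TPM with vehicle. The groups did not overlap, and vehicle 4 (32.7 TPM) was like vehicle 2 (log2 change 0.88 ± 0.069, SE, adjusted p = 8.15e-04). Klf2, the factor that switches on S1pr1, stood at 89.6, 96.5 and 96.6 TPM with PC and 38.7, 46.03 and 38.5 TPM with vehicle. Klf3, a related repressor, stood at 31.2, 33.5 and 35.2 TPM against 18.5, 16.1 and 20.5 TPM (log2 change 0.83, adjusted p = 0.00198). For both factors, each PC library lay above each vehicle library. Tsc22d3, known as GILZ and induced by glucocorticoids and by FOXO factors in resting cells, rose from 11.9, 11.6 and 11.7 TPM in vehicle 1, 2 and 3 to 22.5, 22.02 and 20.8 TPM in PC 1, 2 and 3 (log2 change 0.84, adjusted p = 6.84e-04). Tcf7, a factor of naive and memory cells, rose by 0.31 on the log2 scale (adjusted p = 0.00168). The one member that fell was Igfbp4, a binding protein for insulin-like growth factors, at 12.3, 14.6 and 11.6 TPM with PC and 18.5, 18.1 and 19.3 TPM with vehicle (log2 change -0.51, adjusted p = 0.00852). Ccr7, the chemokine receptor of naive cells, stood at 428, 487 and 467 TPM with PC and 396, 458 and 405 TPM with vehicle and overlapped (adjusted p = 0.211).

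Receptors that place T cells in tissues followed a mixed course, with 10 of 30 adhesion and trafficking genes higher (6 without PC 3 or vehicle 1) and 3 lower (1 without vehicle 1). S1pr4, a second sphingosine 1-phosphate receptor, stood at 52.96, 53.95 and 56.6 TPM with PC and 30.8, 34.5 and 32.5 TPM with vehicle (log2 change 0.72, adjusted p = 7.73e-04). Cxcr4, the receptor for CXCL12, stood at 17.9, 17.6 and 19.9 TPM with PC and 9.6, 11.9 and 9.99 TPM with vehicle (log2 change 0.76, adjusted p = 0.00258). Neither receptor's groups overlapped. Ccr4, a receptor for skin homing, fell, at 3.14, 3.32 and 2.89 TPM with PC and 5.35, 5.74 and 7.31 TPM with vehicle (log2 change -0.78, adjusted p = 0.00577).

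Of 20 transcription factors of effector and memory cells, 3 rose and 3 fell. Tbx21, which encodes T-bet and drives effector differentiation, stood at 46.5, 43.8 and 45.7 TPM with PC and 58.7, 52.7 and 58.2 TPM with vehicle (log2 change -0.31, adjusted p = 0.00888). Its partner Eomes fell by 0.29 on the log2 scale (adjusted p = 0.00308), and Id2, which supports effector cells, by 0.45 (adjusted p = 0.00287). Bhlhe40, a factor of cytokine-producing T cells, rose from 29.4, 30.1 and 30.2 TPM in vehicle 1, 2 and 3 to 38.9, 44.5 and 41.95 TPM in PC 1, 2 and 3 (log2 change 0.47, adjusted p = 0.00258). Batf3, a partner of AP-1 factors in activated T cells, was one of the larger falls outside the cell cycle, at 5.39, 6.07 and 5.18 TPM with PC and 13.9, 15.6 and 12.6 TPM with vehicle (log2 change -1.20 ± 0.10, SE, adjusted p = 8.62e-04).

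Parts of the T cell receptor pathway were higher with PC. Of 30 proximal signalling genes, 16 rose and 1 fell, with a median log2 change of 0.14. Zap70, the kinase that binds the phosphorylated receptor, stood at 171, 171 and 177 TPM with PC and 131, 135 and 134 TPM with vehicle (log2 change 0.37 ± 0.029, SE, adjusted p = 8.15e-04). Each PC library was well above each vehicle library. Cd247, the zeta chain to which ZAP-70 binds, rose by 0.32 on the log2 scale (adjusted p = 0.00173). Members known to restrain the pathway differed among themselves. The phosphatase gene Ptpn22 rose by 0.35, the surface inhibitor Cd5 by 0.26 and its relative Cd6 by 0.28, but Csk, the kinase that keeps LCK inactive, was not called, at 313, 298 and 314 TPM with PC and 329.9, 299 and 331 TPM with vehicle (adjusted p = 0.475). Themis, a developmental regulator of the pathway, was called lower (-0.20, adjusted p = 0.0259), but not in the blocked fit (adjusted p = 0.0597) or without PC 1 (0.0662), PC 2 (0.0771), PC 3 (0.0742), vehicle 1 (0.0873) or vehicle 3 (0.0818).

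Of 21 inhibitory receptor genes, 9 rose and 1 fell. Vsir, which encodes the checkpoint receptor VISTA of resting T cells, stood at 80.5, 89.3 and 95.95 TPM with PC and 51.2, 51.1 and 50.9 TPM with vehicle. Vehicle libraries were nearly equal and all PC libraries lay far above (log2 change 0.78 ± 0.063, SE, adjusted p = 8.62e-04). Lag3, a checkpoint receptor of activated cells, stood at 39.1, 41.05 and 40.9 TPM against 27.4, 24.5 and 28.9 TPM (log2 change 0.57, adjusted p = 0.00218), and Pdcd1, which encodes PD-1, at 77.6, 73.9 and 76.6 TPM against 58.8, 48.9 and 60.9 TPM (log2 change 0.43, adjusted p = 0.0122). Cd274, the ligand PD-L1, rose by 0.38 on the log2 scale. The member that fell was Il10ra, a chain of the interleukin-10 receptor (-0.40, adjusted p = 0.00294).

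Costimulatory genes split, with 9 of 19 higher (5 without PC 3 or vehicle 3) and 4 lower (2 without vehicle 1). Tnfrsf8, which encodes CD30, fell 2.66-fold in mean level, from 5.93, 6.53 and 6.19 TPM in vehicle 1, 2 and 3 to 2.2, 2.34 and 2.48 TPM in PC 1, 2 and 3 (log2 change -1.11, adjusted p = 7.92e-04). Icos, a late costimulatory receptor, fell by 0.33 on the log2 scale (adjusted p = 0.00957). Cd27, a receptor of naive and early cells, rose from 135, 144 and 136 TPM in vehicle 1, 2 and 3 to 190.4, 196 and 182 TPM in PC 1, 2 and 3 (log2 change 0.45, adjusted p = 0.00106). Tnfsf14, the ligand LIGHT, rose by 0.40 and Tnfrsf18, which encodes GITR, by 0.36. The activation marker Cd69 stood at 154, 184 and 178 TPM with PC and 165, 173 and 168 TPM with vehicle, and overlapped (adjusted p = 0.862).

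Genes of the interleukin-2 pathway fell more often than they rose, with 6 of 25 lower and 2 higher. Il2ra, the high-affinity receptor chain CD25, stood at 132, 139.8 and 134 TPM with PC and 161, 151 and 161 TPM with vehicle (log2 change -0.22, adjusted p = 0.00921). Socs2, a target and feedback inhibitor of STAT5, stood at 3.6, 3.71 and 4.19 TPM with PC and 7.49, 6.61 and 6.48 TPM with vehicle (log2 change -0.70, adjusted p = 0.00318). In neither did the groups overlap. Jak1, the kinase shared by many cytokine receptors, rose by 0.21 on the log2 scale (adjusted p = 0.00472). The count of genes that rose was 1 without PC 2, vehicle 1 or vehicle 3.

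Interferon response genes moved in both directions. Of 46 tested, 8 rose and 10 fell, with a median log2 change of -0.049. Among those lower was the guanylate-binding protein gene Gbp2, at 428, 444 and 431 TPM with PC and 535, 532 and 528 TPM with vehicle. The groups did not overlap (log2 change -0.29, adjusted p = 8.15e-04). Gbp6 fell by 0.26 on the log2 scale and the GTPase gene Ifi47 by 0.23, both known as targets of interferon gamma, while Igtp, another such target, was not called, at 402, 416 and 411 TPM with PC and 417, 432 and 417 TPM with vehicle (adjusted p = 0.299). Among those higher were Irf9, the DNA-binding part of the type I interferon complex, at 32.5, 32.1 and 32.3 TPM with PC and 23.4, 26.1 and 23.4 TPM with vehicle (log2 change 0.40, adjusted p = 0.003999), Ifit3 (0.43, adjusted p = 0.0104) and Samhd1 (0.21, adjusted p = 0.00276). In the antigen presentation list, 7 of 21 genes rose and 3 fell, and the higher count was 4 without PC 1, vehicle 1, vehicle 2 or vehicle 3. The class I heavy chain genes H2-K1 (0.17), H2-D1 (0.21) and H2-T23 (0.21) rose, while the immunoproteasome subunits Psmb9 (-0.27) and Psmb8 (-0.15) fell, all as log2 changes.

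**Figure D4:**
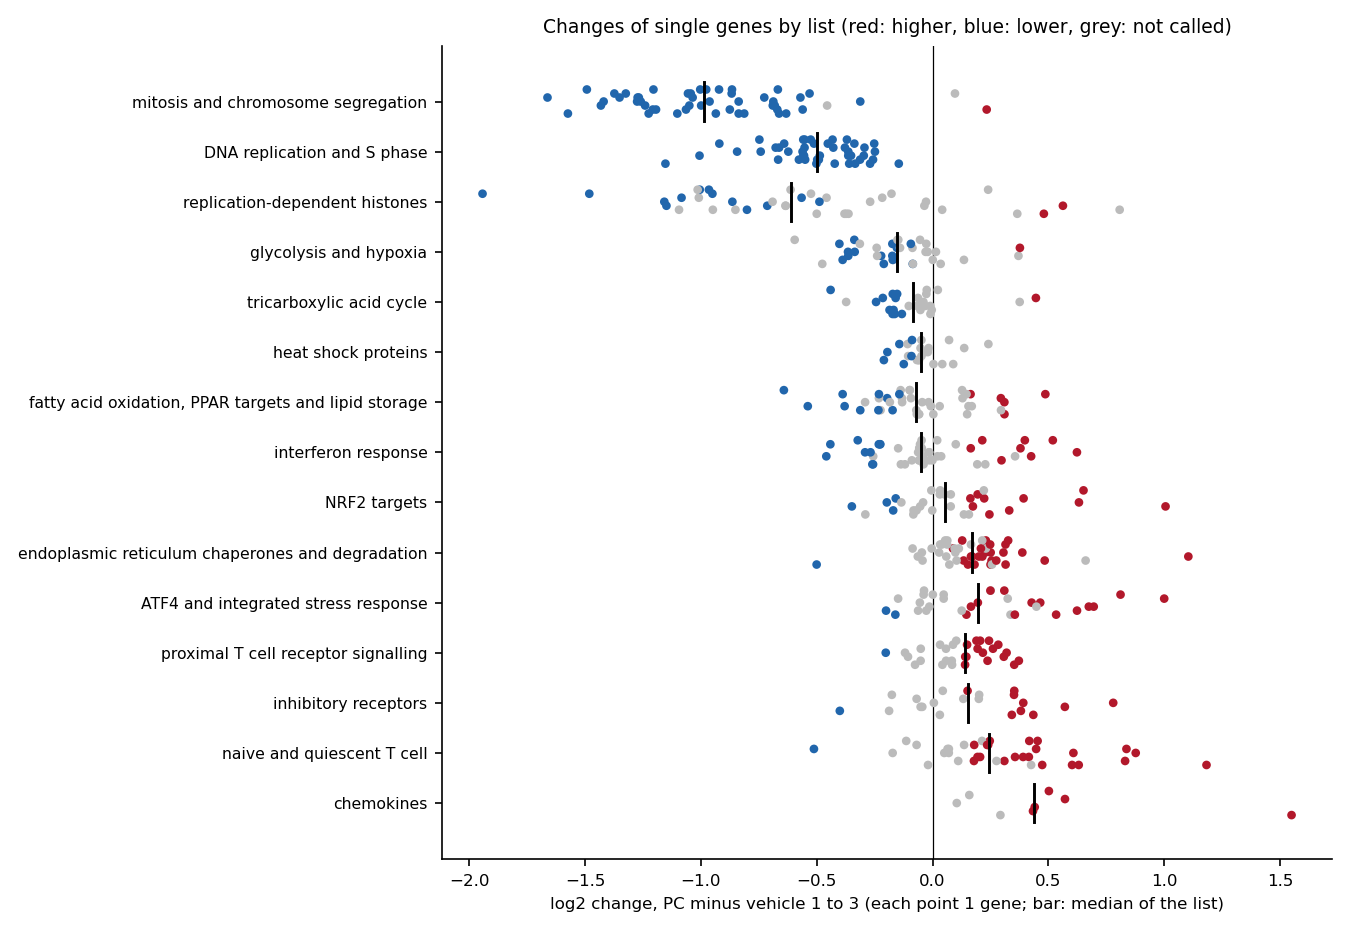
Log2 change with PC of each tested gene in 15 lists (points, red if called higher, blue if called lower, grey if not called) with the list median as a black bar. The interferon, NRF2 and lipid storage lists hold calls on both sides of 0, whereas calls in the S phase list are all below it and calls in the chemokine list all above it.

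The lipid carries arachidonic acid, and several genes that make eicosanoids from it were at or near 0. In the 6 libraries, Ptgs1 and Ptgs2, the cyclooxygenases, did not exceed 0.04 and 0.37 TPM, and Alox5, the enzyme that starts leukotriene synthesis, did not exceed 0.32 TPM. Pla2g4a, a phospholipase that frees arachidonic acid, did not exceed 0.95 TPM, so none of the 4 was tested. Of 30 genes listed for arachidonate release and eicosanoids, 14 were tested, and of these 1 rose and 3 fell. Some of those tested were well expressed. Mean levels with PC and vehicle were 39.7 and 36.7 TPM for Pla2g12a and 228 and 249 TPM for Ptges3. Mgll, the lipase that degrades the arachidonate-carrying endocannabinoid 2-AG, stood at 1.32, 1.4 and 1.26 TPM with PC and 3.43, 2.96 and 2.57 TPM with vehicle (log2 change -0.77, adjusted p = 0.00579). Faah, which degrades the related lipid anandamide, stood at 25.5, 27.2 and 25.2 TPM with PC and 20.6, 20.2 and 19.4 TPM with vehicle, higher with PC (log2 change 0.36, adjusted p = 0.00488, and 0.128 with 1 fit over all 11 libraries). Lta4h, a leukotriene A4 hydrolase that also trims peptides, fell by 0.28 on the log2 scale (adjusted p = 0.00727).

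Of 20 genes of the prostaglandin E2 and cyclic AMP response, 9 rose (5 without vehicle 1) and 1 fell (2 without vehicle 2 and 0 without vehicle 1). Ptger2, the EP2 receptor for prostaglandin E2, stood at 9.81, 9.93 and 10.6 TPM with PC and 6.46, 6.12 and 7.53 TPM with vehicle (log2 change 0.53, adjusted p = 0.00742). The other receptor measured, Ptger4, stood at 20.97, 21.1 and 20.7 TPM with PC and 21.9, 19.4 and 22.4 TPM with vehicle and was not called (adjusted p = 0.865). Genes that cyclic AMP is known to induce were among those that rose. Crem, which encodes a cyclic AMP responsive factor, stood at 40.95, 44.3 and 47.04 TPM with PC and 32.7, 31.2 and 33.1 TPM with vehicle (log2 change 0.43, adjusted p = 0.003803). Rgs2, which dampens G protein signals, rose by 0.61 on the log2 scale (adjusted p = 0.00408), Pde4b, which degrades cyclic AMP, by 0.53 (adjusted p = 0.00453), and Dusp4 by 0.50 (adjusted p = 0.00448). In AOAH 1 to 3, which had no lipid, mean levels of Crem (38.9 TPM), Rgs2 (10.4 TPM) and Dusp4 (16.7 TPM) lay between vehicle and PC. Pde4b (6.22 TPM) lay below both. Against AOAH, Crem and Rgs2 were not called in the main fit, and Dusp4 lost its call in the blocked fit (limma adjusted p = 0.0887). Nr4a2 was not called (0.028, adjusted p = 0.867). The full cyclic AMP response element (letters TGACGTCA, both strands) was found in 1 of 13 list promoters (7.7%), in 0 of the 6 of called members, and in 3.6% of all.

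Genes of phosphatidylcholine synthesis and acyl remodelling were called higher in 4 of 36 cases (2 without PC 1, vehicle 2 or vehicle 3 and 1 without PC 2 or PC 3) and lower in 3 (1 without PC 1 or vehicle 1 and 1 with batch as a block). Pld3, a phospholipase D family member of lysosomes, rose from 54.4, 53.3 and 53.8 TPM in vehicle 1, 2 and 3 to 76.02, 79.1 and 76.2 TPM in PC 1, 2 and 3 (log2 change 0.51 ± 0.034, SE, adjusted p = 6.84e-04). Mboat1, which adds acyl chains to lysophospholipids, fell from 16.4, 14.8 and 13.2 TPM to 9.82, 9.5 and 10.2 TPM (log2 change -0.54, adjusted p = 0.00685). Pcyt1a, the rate-limiting enzyme of phosphatidylcholine synthesis, was called lower at 10.7, 13.8 and 10.9 TPM against 20.8, 16.1 and 17.4 TPM (log2 change -0.57, adjusted p = 0.0199). It was not called in the blocked fit (adjusted p = 0.0597) or without PC 1 (0.0621), PC 3 (0.0672), vehicle 1 (0.0569) or vehicle 3 (0.0519), and vehicle 4 (13.8 TPM) lay at the level of PC 2. Lpcat3, which places arachidonate in phospholipids, stood at 41.5, 51.7 and 46.5 TPM with PC and 45.2, 47.4 and 44.3 TPM with vehicle (adjusted p = 0.867), and Acsl4, which activates arachidonate, at 38.3, 38.03 and 37.1 TPM and 38.3, 35.5 and 36.6 TPM (adjusted p = 0.589). Both had overlapping groups.

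In the list of fatty acid oxidation, PPAR targets and lipid storage, 10 of 41 genes fell (6 without PC 1 or vehicle 3, 5 without PC 3, 4 without PC 2 or vehicle 1 and 6 with batch as a block) and 5 rose (3 without PC 1, PC 2, PC 3, vehicle 1 or vehicle 2, 2 without vehicle 3 and 1 with batch as a block). Fabp5, a carrier of fatty acids in T cells, stood at 77.4, 71.7 and 78.9 TPM with PC and 126, 118 and 113 TPM with vehicle. The groups did not overlap (log2 change -0.64 ± 0.054, SE, adjusted p = 9.65e-04). Plin2, a coat protein of lipid droplets, stood at 10.9, 11.01 and 12.1 TPM with PC and 17.4, 17.3 and 16.1 TPM with vehicle (log2 change -0.54, adjusted p = 0.00258), also apart. Dgat1, which makes the triglycerides that fill droplets, rose from 7.11, 8.09 and 8.68 TPM in vehicle 1, 2 and 3 to 11.9, 10.96 and 11.8 TPM in PC 1, 2 and 3 (log2 change 0.49, adjusted p = 0.00892). The desaturase Scd2, which makes oleic acid, fell by 0.71 on the log2 scale (adjusted p = 0.00174).

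Cholesterol synthesis genes were seldom called, with 1 of 28 higher and 2 lower (1 without PC 1, PC 2, PC 3, vehicle 1 or vehicle 3 and 1 with batch as a block). The higher count was 3 under quantile normalization and 2 with TMM rescaling, with vehicle 4 included or in 1 fit over all 11 libraries. Cyp51, which demethylates lanosterol, rose (0.32, adjusted p = 0.008097), and Acat2, which makes acetoacetyl-CoA, fell (-0.33, adjusted p = 0.00708).

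Many genes of endoplasmic reticulum protein folding were higher with PC. Of 48 chaperone and degradation genes, 25 rose and 1 fell, with a median log2 change of 0.17. Hspa5, the chaperone BiP, stood at 873, 881 and 867 TPM with PC and 731, 719 and 754 TPM with vehicle. The rise was small beside its level, and the groups did not overlap (log2 change 0.25 ± 0.023, SE, adjusted p = 0.00129). Manf, a secreted stress protein, stood at 672, 639 and 681 TPM with PC and 532, 534 and 534 TPM with vehicle (log2 change 0.31, adjusted p = 0.00113). Dnajb9, a helper of BiP and a target of XBP1, stood at 15.6, 16.1 and 14.5 TPM with PC and 10.7, 10.7 and 10.8 TPM with vehicle (log2 change 0.48, adjusted p = 0.00287). Derl3, which helps to move misfolded proteins out for degradation, was the largest rise of the list at a low level, 7.41, 7.57 and 11.5 TPM against 3.8, 2.56 and 4.3 TPM. Xbp1 itself rose by 0.25 on the log2 scale (adjusted p = 0.00965). The one member called lower, the disulfide isomerase gene Pdia5 (-0.50, adjusted p = 0.04604), was not called in the blocked fit (adjusted p = 0.0763) or without any 1 library (0.0544 without vehicle 2 to 0.140 without vehicle 1).

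The element through which ATF6 and XBP1 act is the ERSE, CCAAT and CCACG with 9 bases between them. It is shown in the promoters of 2 genes of the list because it is rare elsewhere, with the whole match in capitals.
Hspa5 (chr2:34771970-34772089, plus strand): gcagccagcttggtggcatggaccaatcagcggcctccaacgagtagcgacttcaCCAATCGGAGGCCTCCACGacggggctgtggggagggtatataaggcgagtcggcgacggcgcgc
Creld2 (chr15:88819496-88819615, plus strand): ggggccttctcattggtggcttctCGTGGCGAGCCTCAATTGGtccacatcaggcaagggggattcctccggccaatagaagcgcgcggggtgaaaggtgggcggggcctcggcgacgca
Creld2, a resident protein of the endoplasmic reticulum, rose from 71.02, 69.04 and 72.6 TPM in vehicle 1, 2 and 3 to 92.5, 84.3 and 90.7 TPM in PC 1, 2 and 3 (log2 change 0.33, adjusted p = 0.00384), and its element lies on the other strand. Of 41 list members with a RefSeq promoter, 9 held the element (22.0%), against 0.2% of the promoters of all genes tested. By outcome, it was in 1.1% of the promoters of genes called higher and in 0.1% of those not called. Among promoters of called list members, 8 of 21 held it, and only 8 promoters of all genes called higher did. The 1.1% is thus largely the list members counted again and is no separate evidence.

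ATF4 targets rose more often than they fell, with 14 of 31 higher and 2 lower and a median log2 change of 0.20. Trib3, a pseudokinase, stood at 10.4, 10.1 and 10.7 TPM with PC and 4.45, 4.98 and 4.65 TPM with vehicle. Sesn2, a sensor that restrains mTORC1, stood at 10.5, 10.4 and 10.4 TPM with PC and 6.25, 5.68 and 6.32 TPM with vehicle (log2 change 0.70 ± 0.067, SE, adjusted p = 0.00145). PC libraries were nearly equal in both genes and well above every vehicle library. Ddit3, which encodes CHOP, stood at 29.7, 36.4 and 34.8 TPM with PC and 18.9, 23.9 and 19.3 TPM with vehicle (log2 change 0.67, adjusted p = 0.00747). Chac1, which degrades glutathione, stood at 4.63, 4.97 and 5.64 TPM with PC and 1.81, 2.57 and 3.12 TPM with vehicle (log2 change 0.81, adjusted p = 0.01296). Asns, asparagine synthetase, rose by 0.31 on the log2 scale (adjusted p = 0.00982) and Atf4 itself by 0.15 (adjusted p = 0.00963). Phgdh, the first enzyme of serine synthesis and also an ATF4 target, fell from 308, 306 and 305 TPM in vehicle 1, 2 and 3 to 270.5, 260.4 and 268 TPM in PC 1, 2 and 3 (adjusted p = 0.00258). The lower count was 1 without PC 1, PC 2, PC 3, vehicle 1 or vehicle 3. ATF4 with C/EBP partners binds the CARE element (letters TGATGNAA), shown in capitals on either strand in the promoters of Chac1 and Asns.
Chac1 (chr2:119351012-119351111, plus strand): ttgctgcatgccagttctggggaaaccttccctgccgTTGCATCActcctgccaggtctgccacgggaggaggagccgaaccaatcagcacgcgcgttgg
Asns (chr6:7693210-7693309, minus strand): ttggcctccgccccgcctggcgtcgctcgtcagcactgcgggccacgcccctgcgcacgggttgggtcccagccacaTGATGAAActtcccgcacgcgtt
CARE letters were found in 7 of 26 list members with a RefSeq promoter (26.9%), in 3 of the 13 that were called, and in 2.1% of the promoters of all genes tested. They were in 2.3% of the promoters of all genes called higher, close to the background.

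Heat shock genes were not called higher, with 0 of 23 higher (1 without vehicle 2) and 6 lower (3 without PC 1, PC 2 or vehicle 1 and 3 with batch as a block). Ahsa1, which speeds up HSP90, fell from 308, 313 and 308 TPM in vehicle 1, 2 and 3 to 277, 261 and 265 TPM in PC 1, 2 and 3 (log2 change -0.21, adjusted p = 0.00399). Hsp90aa1 (-0.20, adjusted p = 0.005595) lost its call under quantile normalization (adjusted p = 0.141).

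Of 31 targets of NRF2, the regulator of antioxidant genes, 10 rose (6 without PC 3 or vehicle 3) and 4 fell. Sqstm1, which encodes the autophagy adaptor p62, stood at 138, 154 and 149 TPM with PC and 91.3, 95.9 and 92.1 TPM with vehicle. The groups were well apart (log2 change 0.65 ± 0.047, SE, adjusted p = 7.41e-04). Hmox1, heme oxygenase, stood at 7.82, 7.41 and 8.37 TPM with PC and 3.02, 4.24 and 3.08 TPM with vehicle. Ftl1, the light chain of ferritin, rose by 0.33 on the log2 scale (adjusted p = 6.84e-04) and Fth1, its heavy chain, by 0.17 (adjusted p = 0.00916). Both chains store iron. Gstp1, a glutathione transferase, fell by 0.17 (adjusted p = 0.00772), and Txnrd1, thioredoxin reductase, was not called (adjusted p = 0.493). Slc7a11, the cystine importer that NRF2 and ATF4 both induce, was too low to be tested, at 0.38 to 0.43 TPM with PC and 0.14 to 0.18 TPM with vehicle. The core of the antioxidant response element (letters TGANNNNGC) was in 13 of 26 list promoters (50.0%) and in 43.3% of all.

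Genes that defend against peroxides moved in both directions, with 4 of 30 higher and 7 lower (4 without vehicle 1 or vehicle 2, 3 without PC 1, PC 3 or vehicle 3 and 2 without PC 2). Glrx, glutaredoxin, fell from 53.1, 49.5 and 50.9 TPM in vehicle 1, 2 and 3 to 33.1, 30.8 and 31 TPM in PC 1, 2 and 3 (log2 change -0.68 ± 0.048, SE, adjusted p = 7.07e-04). Aldh2, which clears reactive aldehydes, stood at 4.65, 7.05 and 7.12 TPM with PC and 11.6, 11.2 and 14.5 TPM with vehicle (log2 change -0.90, adjusted p = 0.0117). In neither gene did the groups overlap. Gpx4, which reduces lipid hydroperoxides in membranes, was called lower at 107, 104 and 113 TPM against 119.9, 118 and 126 TPM (log2 change -0.16, adjusted p = 0.0404). It lost the call under quantile normalization (adjusted p = 0.0744) and without PC 1 (0.107), PC 2 (0.117), vehicle 1 (0.0926) or vehicle 3 (0.116).

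Some glycolysis genes were lower with PC, by small amounts. Of 35 genes of glycolysis and the hypoxia response, 14 fell and 1 rose, with a median log2 change of -0.15. The lower count was 9 without PC 1 or PC 3, 8 without PC 2 and 7 without vehicle 1 or vehicle 3, and the higher count was 0 without PC 2. Tpi1, triosephosphate isomerase, stood at 313, 297 and 312 TPM with PC and 409, 393 and 417 TPM with vehicle (log2 change -0.40 ± 0.033, SE, adjusted p = 8.99e-04). Hk2, the inducible hexokinase, fell by 0.34 on the log2 scale (adjusted p = 0.00821), Eno1 by 0.22 (adjusted p = 0.0025) and Pkm, pyruvate kinase, by 0.15 (adjusted p = 0.00314). In the tricarboxylic acid cycle, 11 of 26 genes fell and 1 rose, and the lower count was 7 without PC 2 and 5 without vehicle 1 or vehicle 3. Suclg2, a subunit of succinyl-CoA ligase, fell from 37.8, 38.2 and 38.5 TPM in vehicle 1, 2 and 3 to 29.02, 27.3 and 27.3 TPM in PC 1, 2 and 3 (log2 change -0.44, adjusted p = 0.00148). The member that rose was Pck2, the mitochondrial PEP carboxykinase and an ATF4 target (0.45, adjusted p = 0.00405).

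Among 50 genes of MYC and ribosome biogenesis, 13 fell and 1 rose, with a median log2 change of -0.073. The lower count was 6 without PC 3, 5 without vehicle 3, 4 without PC 1 or PC 2, 3 without vehicle 1 and 6 with batch as a block, and the higher count was 2 without vehicle 3. Ncl, nucleolin, fell from 1377, 1326 and 1368 TPM in vehicle 1, 2 and 3 to 1199, 1201 and 1172 TPM in PC 1, 2 and 3 (log2 change -0.19, adjusted p = 0.00251). Mxd4, a MAX partner that opposes MYC in resting cells, was the one member that rose, at 8.33, 9.72 and 9.32 TPM with PC and 4.24, 5.76 and 5.34 TPM with vehicle (log2 change 0.73, adjusted p = 0.00613). The call of Myc itself, at 308, 327 and 321 TPM with PC and 344, 344 and 339 TPM with vehicle (log2 change -0.10, adjusted p = 0.0435), was lost in the blocked fit (adjusted p = 0.0786), under TMM (0.0600) and quantile (0.0746) scaling and without any 1 library except PC 2 (0.0879 to 0.120).

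Of 28 p53 targets, 8 rose and 3 fell, with Cdkn1a, Sesn2 and Btg2, described above, among those that rose. Gtse1, which fell (-0.78, adjusted p = 0.00188), is also a mitotic gene. Pmaip1, the death-promoting BH3 protein NOXA, stood at 6.04, 6.4 and 6.28 TPM with PC and 4.09, 3.99 and 4.11 TPM with vehicle (log2 change 0.52, adjusted p = 0.00408). Of 25 BCL2 family and death receptor genes, 6 rose (3 without vehicle 1, 2 without vehicle 3 and 3 with batch as a block) and 3 fell (1 without PC 2).

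Several of the larger changes lie outside the groups above. Drc1, known from the axonemes of cilia, stood at 1.47, 2.38 and 1.79 TPM with PC and 10.7, 5.62 and 10.5 TPM with vehicle. Rhob, an endosomal GTPase, rose from 4.4, 4.84 and 5.16 TPM in vehicle 1, 2 and 3 to 8.9, 9.88 and 9.5 TPM in PC 1, 2 and 3 (log2 change 0.85, adjusted p = 0.00143). Gna15, a G protein subunit of blood cells, rose from 2.32, 2.78 and 3.62 TPM to 5.01, 6.72 and 6.13 TPM (log2 change 0.84, adjusted p = 0.0109). Of 18 long noncoding RNAs tested, 7 rose (4 without PC 1 or vehicle 2, 3 without PC 2 or vehicle 3, 2 without PC 3, 1 without vehicle 1 and 3 with batch as a block) and 0 fell. One of them, Neat1, the RNA scaffold of paraspeckles, stood at 67.6, 80.3 and 69.9 TPM with PC and 39.02, 40.8 and 40.5 TPM with vehicle (log2 change 0.84 ± 0.067, SE, adjusted p = 8.58e-04). Drc1, Rhob, Gna15 and Neat1 had no overlapping groups. Map1lc3a, an LC3 protein of autophagosomes, stood at 4.59, 4.35 and 4.55 TPM with PC and 2.24, 1.92 and 2.26 TPM with vehicle (log2 change 0.81, adjusted p = 0.002103). The ribosomal protein pseudogene Rpl7a-ps11 was listed at 0 in all 4 vehicle libraries and at 8.31, 15.4 and 14.7 TPM in PC 1, 2 and 3, and its reads may belong to the parent gene.

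Transcripts of the T cell receptor constant regions were higher with PC. Trac, the constant region of the alpha chain, stood at 350.1, 366 and 350.3 TPM with PC and 257, 274 and 266 TPM with vehicle (log2 change 0.42 ± 0.033, SE, adjusted p = 8.15e-04). In the authors' deposited repertoire table, whose labels name MiXCR, PC 1, 2 and 3 held 1514, 1616 and 1600 alpha chain clonotypes and vehicle 1, 2 and 3 held 1112, 1104 and 991. Beta chain clonotypes numbered 2745, 2873 and 2986 with PC and 2264, 2237 and 2017 with vehicle 1, 2 and 3. The groups did not overlap for either chain, but an exact two-sided permutation test of 3 against 3 cannot go below p = 0.10, which both reached. Vehicle 4 held 1264 and 2649. The table shows no scaling to depth, and receptor transcript levels were also higher with PC. Within groups, these levels and the clonotype numbers did not always move together. Trac stood at 273.25 TPM in vehicle 4 and 273.53 TPM in vehicle 2, which held 1264 and 1104 alpha chain clonotypes. The part of depth or of transcript level in the difference was not tested. Beta chain clonality, a measure of unevenness, was 0.0072, 0.0067 and 0.0065 with PC and 0.0060, 0.0060 and 0.0069 with vehicle, and the groups overlapped.

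The other treatment of the series gives a direct contrast in cells activated in the same batches. PC libraries 1 to 3 were compared with AOAH libraries 1 to 3, which had ethanol and no lipid, with the same PC libraries as above and without vehicle. Of 11606 genes tested, 4804 were called (41.4%), 2264 higher with PC (19.5%) and 2540 lower (21.9%). With 41.4% of all genes called, all 45 S phase genes and 48 of 50 mitosis genes were lower with PC than with AOAH, and 30 of 36 genes of naive T cells were higher.

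S1pr1 stood at 53.1, 55.3 and 55.4 TPM in PC 1, 2 and 3 and 8.05, 6.12 and 7.97 TPM in AOAH 1, 2 and 3 (log2 difference 2.74 ± 0.10, SE, adjusted p = 1.95e-05). Vehicle 1, 2 and 3, given above, lay between them. Cxcr4 had the same order, with 3.34, 2.52 and 4.46 TPM in AOAH 1, 2 and 3 (log2 difference 2.16, adjusted p = 9.92e-05), and so did Neat1, with 19.9, 14.2 and 21.9 TPM (log2 difference 1.92, adjusted p = 2.00e-04). In the opposite order, Rrm2 stood at 242, 246 and 255 TPM in AOAH 1, 2 and 3 (log2 difference -1.41, adjusted p = 2.42e-05) and Tpi1 at 579, 551 and 583 TPM (log2 difference -0.89, adjusted p = 1.95e-05), above vehicle and PC.

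Interferon response genes also differed between the treatments. With PC, 31 of 44 were higher than with AOAH and 0 were lower. Ifit3 stood at 3.63, 3.7 and 4.35 TPM in AOAH 1, 2 and 3 (log2 difference 1.77, adjusted p = 3.17e-05). Irf9 stood at 16.9, 14.9 and 15.6 TPM in AOAH 1, 2 and 3 (log2 difference 0.99, adjusted p = 4.72e-05), and vehicle 1, 2 and 3 lay between the treatments for both genes. Being higher than AOAH did not always mean being higher than vehicle. Gbp6 stood at 79.2, 76.4 and 84.3 TPM in AOAH 1, 2 and 3 (log2 difference 0.29, adjusted p = 0.00237) and at 118, 117 and 115 TPM in vehicle 1, 2 and 3, above both treatments.

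For Lag3 and Pdcd1 the treatments did not differ detectably. Lag3 stood at 39.9, 40.9 and 41.04 TPM in AOAH 1, 2 and 3, close to the PC libraries, with a log2 difference of -0.0084 ± 0.040 (SE, adjusted p = 0.8895). Pdcd1 stood at 75.04, 77.02 and 75.1 TPM (log2 difference 0.0058 ± 0.034, SE, adjusted p = 0.913). For Id2 the call depended on the setting. It stood at 40.8, 43.6 and 37.2 TPM, lower than in vehicle 1 to 3, with a log2 difference between treatments of -0.15 ± 0.062 (SE, adjusted p = 0.103), and it was called without AOAH 3 (0.0253), with AOAH 4 included (0.0488) and in 1 fit over all 11 libraries (0.0480). A miss of the threshold does not show that the treatments act alike. Gzmb was lower with PC than with AOAH, at 3278, 3155 and 3220.5 TPM in AOAH 1, 2 and 3 (log2 difference -0.77, adjusted p = 1.07e-05), and Batf3 likewise (-1.04, adjusted p = 6.97e-04). Ccl1 was higher with PC (1.75, adjusted p = 2.18e-05), as were Sqstm1 (0.81, adjusted p = 5.50e-05) and Trib3 (1.31, adjusted p = 1.45e-04). The ATF4 list as a whole split against AOAH, with 13 of 31 genes higher with PC, 10 lower and a median log2 difference of 0.069. Of all genes tested, 19.5% were higher and 21.9% lower. Glrx was lower with PC than with AOAH (-0.29, adjusted p = 0.00287).

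**Figure D5:**
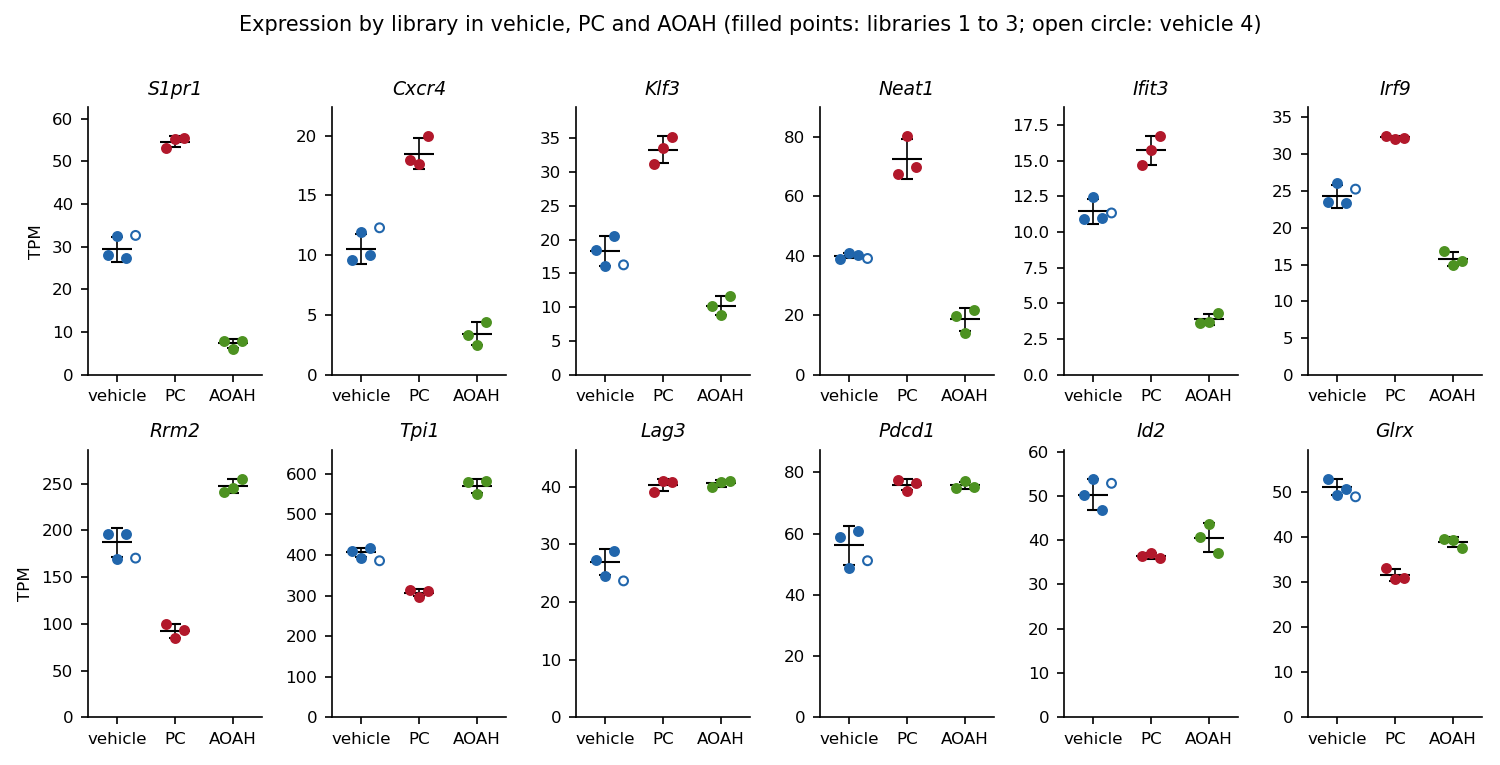
Expression in TPM of 12 genes in vehicle, PC and AOAH libraries 1 to 3 (filled points) with the mean and SD of each group (bars, n = 3) and vehicle 4 as an open circle. Vehicle lies between PC and AOAH for S1pr1, Cxcr4, Klf3, Neat1, Ifit3, Irf9, Rrm2 and Tpi1, PC and AOAH overlap for Lag3, Pdcd1 and Id2, and PC is lowest for Glrx.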

How the data were processed

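Gene expression was measured by RNA sequencing of poly(A)-selected RNA, with unique molecular identifiers and ERCC spike-in per the labels' protocols. The authors' deposited table holds log2 values for 25562 genes in 11 libraries, made with RSEM on build mm39 per the submitters' processing notes. Reading them as log2(TPM + 1) gives library totals of 998406 to 998655 over the 11 libraries, close to the total that TPM have by definition, and TPM printed here were recovered that way. The sources used here state no RSEM version, no annotation and no use of the identifiers, and ERCC values were not used here. The authors' deposited DESeq2 table gives p-values and log2 fold changes for 24346 gene IDs, of which 23450 had a symbol in the name table. It also holds a mean normalized signal per gene and a test score, deposited by the authors and not used beyond describing the table. The authors' deposited repertoire table holds clonotype and clone numbers, entropy and clonality, and its labels name MiXCR.

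Here log2(TPM + 1) was tested with limma 3.58.1 in R 4.3.3 (trend and robust options, two-sided) with Benjamini-Hochberg adjustment over all genes tested and a threshold of 0.05. Genes that averaged 1 TPM or more in the 6 libraries were tested, and log2 changes are on that scale, which understates changes of low genes. The comparisons were PC 1 to 3 against vehicle 1 to 3 and against AOAH 1 to 3. Depth cannot be read from TPM, so no count test or counting interval is given. The test was checked on simulated data of 11628 genes with normal noise, of which 100 were changed by 0.5 and 100 by 1.0 on the log2 scale. It recovered 63% of the former and 86% of the latter, with 5 false calls. Far fewer genes were changed there than were called in the data. The alternatives were other pseudocounts, filters and scalings (TMM factors, unweighted, were computed by their published definition), a shared fit, vehicle 4 included, each library left out, and batch as a block. Batch numbers in the labels mark shared batches. Deviations from the group means correlated at 0.00333, 0.0249 and 0.0708 within batches and at -0.119 to 0.0999 across batches.

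The members, the 40 gene lists and the tests were chosen with earlier results of these data known. Genes were named from a panel of 26, from the 15 largest rises and 15 largest falls (mean of at least 5 TPM in the higher group, groups not overlapping, own symbol, no receptor segments), and from up to 6 called members of lowest p and 2 uncalled members of highest TPM per list. Cdc25b, H2bc4, H2ac12, Ctsw, Igfbp4, Icos, Themis, Trac, Ifit3, Atf4, Asns, Creld2, Xbp1, Pdia5, Ccr4, Ighm, Cd40lg, Cst3, Pecam1, Ptgs1, Alox5, Pla2g4a, Slc7a11, Cd4 and Cd8a were chosen after their values were seen. Some genes that these rules pick are not reported here. Promoter windows are RefSeq's on GRCm38.p6, matched by symbol with the first listed start, and none of their coordinates were used with the mm39 table.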

Additional observations from a re-analysis of the deposited data

How the results depend on the processing

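In the comparison of PC with vehicle, 2270 genes were called, 962 higher and 1308 lower, and the count was 1339 (545 higher, 794 lower) with no expression filter. Leaving out 1 library at a time gave 1274 to 2083 calls, 544 to 818 higher and 719 to 1265 lower; these fits have fewer samples. With batch as a replicate block, calls numbered 1572, with 662 higher and 910 lower. Other settings gave 2239 to 2758 calls. Of 168 genes named in the text and tested, with Mdm2, Aen, Pla2g12a and Ptges3 not counted, 151 were called, 136 of them under every setting, and none reversed. The block ended 8 of those calls, which are given above, and no other call of a named gene; quantile normalization ended 3 and the missing filter 11. Of 80 counts over the gene lists (higher and lower in each), 32 fell by over 1.5 times with no filter, 3 moved by as much with TMM rescaling, 4 with quantile normalization, 6 with a filter of 5 TPM, 6 with vehicle 4 included and 10 in 1 fit over all 11 libraries. With batch as a block 21 moved by as much. Leaving out 1 library moved 12 (without vehicle 2) to 34 (without vehicle 1). Against AOAH, 4804 genes were called and 3798 to 5434 under the alternatives, with 4247 under the block (2015 higher, 2232 lower). Depth is unknown, and genes under 1 TPM, among them Ptgs1, Ptgs2, Alox5 and Pla2g4a, were not tested.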

Other observations

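The lists of this paragraph moved by small median amounts with PC. With all 6 libraries, each had a larger share called higher than the 8.27% of all genes tested. Of 40 cytosolic ribosomal protein genes, 11 rose and 1 fell, with a median log2 change of 0.045. The higher count was 16 without vehicle 2, 5 without PC 1, 4 without PC 3, 3 without PC 2 and 2 without vehicle 1 or vehicle 3. The lower count was 0 without PC 1, PC 3, vehicle 1, vehicle 2 or vehicle 3 and 0 with batch as a block. With TMM rescaling 6 rose and with quantile normalization 7, and none fell under either. Of 36 genes of lysosomes and autophagy, 7 rose and 0 fell, and the higher count was 4 without PC 2, 2 without PC 3, vehicle 1 or vehicle 3 and 3 with batch as a block. Of 13 targets of the liver X receptor, a sensor of oxysterols, 3 rose and 1 fell, and the higher count was 1 without PC 2, PC 3 or vehicle 3 and 1 with batch as a block. One of these targets, Arl4c, stood at 38.5, 40.3 and 38.9 TPM with PC and 29.3, 31.8 and 29.98 TPM with vehicle, with no overlap (log2 change 0.36, limma adjusted p = 0.00345).

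The ribosomal RNA of the mitochondrial small subunit, mt-Rnr1, stood at 934, 874 and 892 TPM with PC and 1219.6, 1189 and 1194 TPM with vehicle (log2 change -0.42 ± 0.029, SE, limma adjusted p = 6.84e-04). All 3 PC libraries lay below all vehicle libraries. Vehicle 4 stood at 1170 TPM. Of 15 genes of the mitochondrial genome, 3 fell, 0 rose and 12 were not called, with a median log2 change of -0.022. The higher count was 1 without PC 2 or vehicle 3 and 1 with batch as a block. The libraries were made from poly(A)-selected RNA, so the level of a ribosomal RNA is uncertain.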
